A study of Mus musculus with 4 samples.

Results

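The genes described are those of the EGF receptor (ErbB) and Met signalling systems of epithelial cells: the receptors Egfr, Erbb2, Erbb3 and Met, the EGF receptor ligands Areg, Ereg, Hbegf, Tgfa and Btc, and the Met ligand Hgf. They were taken by symbol from the table of 24493 genes, and all 10 were listed. RNA sequencing compared cultured mouse liver cells in 2 states. The biliary cultures, labelled Bil_2D, were biliary cells derived from hepatocytes and grown in 2D (2 libraries). The hepatocyte cultures, labelled Hep_3D, were hepatocytes grown in 3D (2 libraries). All 4 libraries came from hepatocytes of the C57BL/6 background and received no treatment, per the labels. Each group held 1 library of clone 15C7 (replicate 1) and 1 of clone 19H5 (replicate 2), and paired values below are in that order. Each library thus held a single clone. Cell state and culture format always changed together and cannot be told apart. The culture medium, including any EGF or HGF added to it, is not given in the sources used here, and neither are the donor animals.

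EGF receptor, ErbB2 and ErbB3 are related cell-surface receptors that act in pairs. EGF receptor binds ligands made as membrane-anchored precursors and released by proteases, ErbB2 binds no known ligand and serves as a partner, and ErbB3 binds neuregulins and has very weak kinase activity of its own. Met is the receptor of hepatocyte growth factor, which stromal cells of the liver secrete as an inactive precursor. Both systems feed the Ras-ERK and PI3K-Akt cascades and are known for driving hepatocyte growth after liver loss, and both take part in bile duct cell formation.

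Levels are TPM, the length-corrected share of a gene in a library of 1000000 in all, so levels of different genes may be compared. Sequencing depth is unknown. Differences are log2 fold changes, Hep_3D minus Bil_2D, of log2(TPM + 1), tested with limma over the 12336 genes that reached 1 TPM in 2 or more libraries. A gene is said to rise or fall where its p, adjusted over all of them, is under 0.05. The 50 most abundant genes took 46.6% and 48.4% of TPM in the Hep_3D libraries against 22.4% and 24.8% in biliary cultures, and over all genes tested the median difference was -0.73. Differences are therefore also given after median-of-ratios scaling of the libraries, called rescaling below, where that median was -0.02. The groups did not overlap for 8 of the 9 members tested on the TPM scale, all but Btc (83% of all genes tested), and for 8 after rescaling, all but Erbb2 (68.3%). The check of the labels against markers gave 6 of 7 hepatocyte markers higher in hepatocyte cultures and 0 lower (0 lower also at an unadjusted p under 0.05 in limma). Of 7 biliary markers, 4 were lower and 1, Spp1, higher on the TPM scale, and after rescaling 2 were lower, 1 was higher, again Spp1, and 4 did not pass. Among all genes tested 6.8% were higher and 51.9% lower on the TPM scale, and 11.9% and 9.54% after rescaling. Epcam, a defining surface marker of bile duct cells, was at 0.439 to 2.59 TPM in all 4 libraries. In bulk RNA fewer cells of a type and less RNA per cell cannot be told apart.

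Areg, Ereg and Btc lie together on chromosome 5 (GRCm38, RefSeq), within 328.4 kb from the start of Ereg at 91074617 to the end of Btc at 91402994, with no other protein-coding gene between them. Egfr lies on chromosome 11 (16752203 to 16913907), Erbb2 also on chromosome 11 (98412484 to 98437716), Erbb3 on chromosome 10 (128567523 to 128589635) and Met on chromosome 6 (17463349 to 17573980). GENCODE genes on the opposite strand overlap Egfr (Egfros), Erbb2 (Mien1 and Gm25048), Ereg (Gm19610) and Tgfa (Gm43917). On the same strand Gm42975 and Gm43489 overlap Hgf, and Mir6917 overlaps Erbb3. These are overlaps of whole gene spans, and shared exons were not looked at. Whether the counting used strand is not given in the sources used here, so whether reads of overlapping genes were told apart is not known. The 250 bases before the start of 2 members, Egfr and Areg, are shown because this receptor and this ligand differed in opposite directions between the states. Letters in capitals mark matches to a motif on either strand, and both windows are on the plus strand, GRCm38.p6, RefSeq, at chr11:16751953-16752202 for Egfr and chr5:91139349-91139598 for Areg.
Egfr: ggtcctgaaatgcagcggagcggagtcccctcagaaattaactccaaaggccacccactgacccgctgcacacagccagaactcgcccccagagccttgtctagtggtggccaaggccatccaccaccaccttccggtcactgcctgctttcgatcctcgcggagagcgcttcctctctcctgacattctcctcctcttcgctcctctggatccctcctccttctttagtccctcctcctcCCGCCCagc
Areg: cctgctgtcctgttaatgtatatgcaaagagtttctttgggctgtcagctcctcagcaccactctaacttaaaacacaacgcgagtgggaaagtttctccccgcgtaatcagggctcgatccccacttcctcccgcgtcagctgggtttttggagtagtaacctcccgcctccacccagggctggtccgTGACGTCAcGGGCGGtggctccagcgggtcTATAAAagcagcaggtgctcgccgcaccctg
The motifs searched were AP-1 (TGANTCA), the cyclic AMP response element (TGACGTCA), the TATA box (TATAAA), Sp1 (GGGCGG), TEAD (GGAATG), C/EBP (TTGCNNAA) and HNF4 (CAAAGTCCA), none of which is contained in another. The Areg window held a cyclic AMP response element 61 bases before the start, an Sp1 match at 52 and a TATA box at 31. The Egfr window held an Sp1 match at 9 bases before the start and none of the other 6 motifs. Among 32851 windows of the same length, 1.55% held the cyclic AMP response element, 12.4% the TATA box and 32.7% an Sp1 match. Of the members, 7 had a window that was searched. The Erbb2 window held a TEAD match at 88 bases before the start (12.6% of all windows), and the windows of Btc and Hgf held none of the 7 motifs. The Met and Tgfa windows belong to transcript starts inside the gene as annotated, as does 1 of 2 windows of Hgf, and the matches in those of Met and Tgfa are not described. A match is a description of letters, not of binding.

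The receptor genes changed in different directions. Egfr and Erbb3 were higher in hepatocyte cultures and Met was higher in biliary cultures, on both scales, while the direction of Erbb2 depended on the scale. Of the 10 genes, 9 passed the filter on low values, and Hgf did not. Of these 9, 2 rose and 5 fell (77.8% called, where 58.7% of all genes tested were called, 6.8% higher and 51.9% lower). After rescaling 2 were higher and 2 lower (44.4%, against 21.4% of all genes, 11.9% higher and 9.54% lower), and all 4 of these were also called on the TPM scale. Leaving out a library lowered the TPM-scale count from 7 to 4 without biliary 15C7, 3 without biliary 19H5, 4 without hepatocyte 15C7 and 4 without hepatocyte 19H5. After rescaling the counts were 2, 1, 1 and 1 in the same order.

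**Figure D1:**
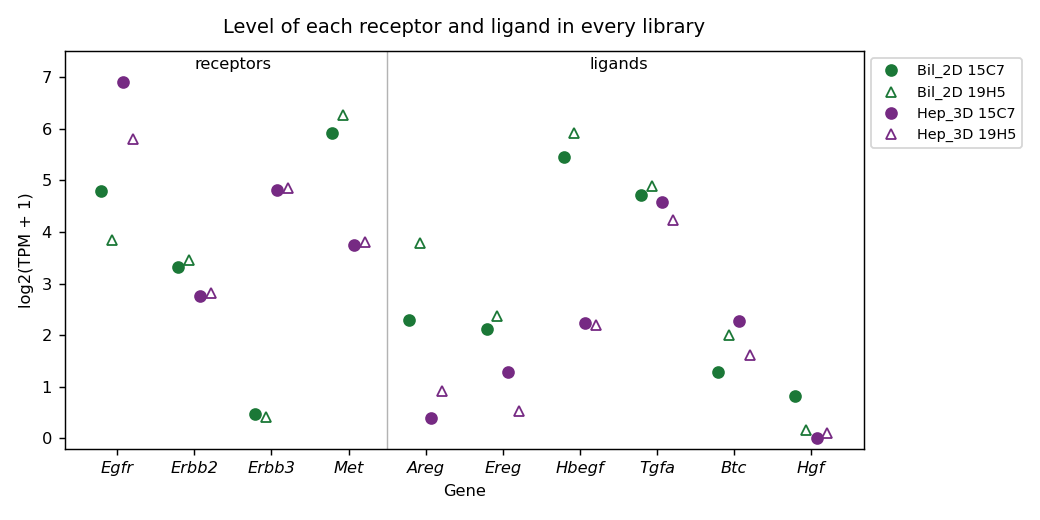
Level of each gene in every library as log2(TPM + 1) on the vertical axis, with green for Bil_2D, purple for Hep_3D, filled circles for clone 15C7 and open triangles for clone 19H5. Egfr and Erbb3 are higher in both Hep_3D libraries, Met, Areg, Ereg and Hbegf are higher in both Bil_2D libraries, and Hgf is under 1 TPM everywhere.

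Erbb3 had the largest log2 fold change of the 9 members tested, on both scales. It stood at 0.385 and 0.333 TPM in biliary cultures and at 27.2 and 28.0 TPM in hepatocyte cultures. Both Bil_2D libraries were near the bottom of the genes tested, at percentiles 1.83 and 2.72, and both Hep_3D libraries were at percentiles 73.5 and 74.6. The ratio of means was 77.0, and the log2 fold change was 4.40 (SE 0.18; limma adjusted p = 0.00215), or 4.89 after rescaling (adjusted p = 0.00135). Erbb3 was called in all 15 alternative settings run, with log2 fold changes from 2.61 to 5.92.

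Egfr was present in both states and higher in hepatocyte cultures. Its level was 26.6 and 13.4 TPM in biliary cultures and 119 and 54.6 TPM in hepatocyte cultures. The groups did not overlap, and in each state clone 15C7 had the higher value. The mean rose from 20.0 ± 9.33 to 87.0 ± 45.8 TPM (SD, n = 2), a log2 fold change of 2.03 (SE 0.51; limma adjusted p = 0.0294), or 2.82 after rescaling (adjusted p = 0.0283). Within the clones the log2 fold change was 2.12 in 15C7 and 1.95 in 19H5. With clone as a replicate block the adjusted p was 0.00904. The call was lost without biliary 15C7 (adjusted p = 0.0593), biliary 19H5 (0.112) or hepatocyte 15C7 (0.0987), and without the filter (0.165). After rescaling it was lost in each of the 4 leave-outs (0.0630 to 0.153).

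Met was the most abundant member in biliary cultures. It stood at 59.4 and 75.4 TPM in biliary cultures and at 12.5 and 12.9 TPM in hepatocyte cultures. Both clones had the higher value in biliary cultures, and the gap between states was wider than that between clones. The mean fell from 67.4 ± 11.4 to 12.7 ± 0.289 TPM (SD, n = 2), a ratio of 5.31 (log2 fold change -2.31 with SE 0.17, limma adjusted p = 0.00454). After rescaling the difference was -1.53 (adjusted p = 0.0160), and there the call was lost in each of the 4 leave-outs (0.0673 to 0.0995).

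Erbb2 was low and differed little. Its level was 8.93 and 9.94 TPM in biliary cultures and 5.73 and 6.06 TPM in hepatocyte cultures. The log2 fold change of -0.60 (SE 0.17; limma adjusted p = 0.0417) was smaller in size than the median of all genes, and it was 0.12 after rescaling (adjusted p = 0.65), where the groups overlapped. The TPM-scale call was lost without biliary 15C7 (0.123), biliary 19H5 (0.177), hepatocyte 15C7 (0.13) or hepatocyte 19H5 (0.117).

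**Figure D2:**
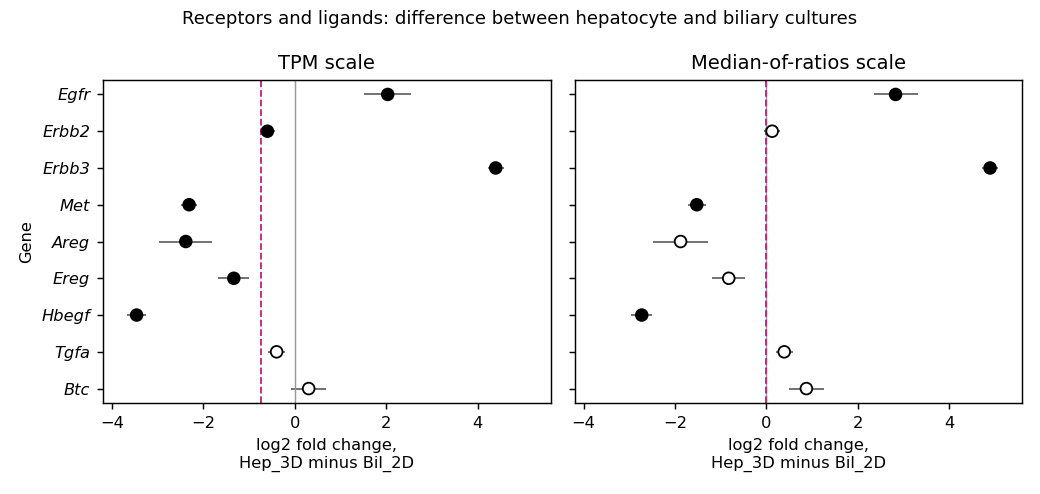
Log2 fold change of the 9 members tested, Hep_3D minus Bil_2D, on the TPM scale (left) and the median-of-ratios scale (right), with bars of 1 SE. Filled points passed an adjusted p of 0.05 in limma and the dashed line is the median of all genes tested (-0.73 and -0.02). Egfr, Erbb3, Met and Hbegf are filled in both panels.

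Of the 5 ligands tested, 3 fell in hepatocyte cultures against biliary cultures (Hbegf, Areg and Ereg), and 1 of them, Hbegf, was also called after rescaling. Among all genes tested 51.9% fell on the TPM scale, and 9.54% were lower after rescaling. Hbegf, the heparin-binding ligand of EGF receptor, was at 42.8 and 59.3 TPM in biliary cultures and at 3.73 and 3.62 TPM in hepatocyte cultures. The Hep_3D libraries were close to each other and far under both Bil_2D libraries. The mean fell from 51.03 ± 11.65 to 3.67 ± 0.0784 TPM (SD, n = 2), a ratio of 13.9 (log2 fold change -3.46 with SE 0.21, limma adjusted p = 0.00364; -2.73 and 0.00744 after rescaling). The call after rescaling was lost without biliary 19H5 (adjusted p = 0.0641), hepatocyte 15C7 (0.0502) or hepatocyte 19H5 (0.0538).

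Areg, the gene of amphiregulin, was at 3.89 and 12.8 TPM in biliary cultures and at 0.310 and 0.899 TPM in hepatocyte cultures. Clone 19H5 had the higher value in both states, and the groups did not overlap. Areg fell on the TPM scale (log2 fold change -2.38 with SE 0.58, limma adjusted p = 0.0267). The difference was -1.88 after rescaling, which did not pass (adjusted p = 0.0939), but did with clone as a replicate block (0.0343). The TPM-scale call was lost without biliary 19H5 (0.0584), hepatocyte 15C7 (0.117) or hepatocyte 19H5 (0.0850).

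Ereg, the gene of epiregulin, was at 3.37 and 4.18 TPM in biliary cultures and at 1.45 and 0.455 TPM in hepatocyte cultures, and the groups did not overlap. It fell on the TPM scale (log2 fold change -1.33 with SE 0.34, limma adjusted p = 0.0295), and its difference after rescaling was -0.83 (adjusted p = 0.177). The TPM-scale call was lost without biliary 15C7 (0.0934), biliary 19H5 (0.117) or hepatocyte 19H5 (0.0755). Without the filter neither Areg (0.157) nor Ereg (0.147) passed.

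Tgfa, the gene of transforming growth factor alpha, was at 25.2 and 28.7 TPM in biliary cultures and 23.0 and 17.7 TPM in hepatocyte cultures. Its log2 fold change was -0.40 (SE 0.19; limma adjusted p = 0.139) on the TPM scale and 0.39 (adjusted p = 0.209) after rescaling. Neither passed, and the groups were apart in opposite directions on the 2 scales. Btc, the gene of betacellulin, was at 1.44 and 3.00 TPM in biliary cultures and at 3.86 and 2.07 TPM in hepatocyte cultures, and the groups overlapped on the TPM scale (log2 fold change 0.31, SE 0.39, adjusted p = 0.524; 0.87 and 0.176 after rescaling). Its differences in the clones had opposite signs, 0.997 in 15C7 and -0.39 in 19H5.

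Hgf was under the filter. It stood at 0.762 and 0.117 TPM in biliary cultures and at 0 and 0.0775 TPM in hepatocyte cultures, where the 15C7 library was listed at 0. Where no counts are given, a listed 0 may be an estimate that failed. Of 11 markers of stellate cells and fibroblasts, which secrete hepatocyte growth factor in liver, 9 were under 1 TPM in every library. Their summed level was 1.37 to 5.08 TPM in biliary cultures and 3.71 to 180.4 TPM in hepatocyte cultures. The high value was 178 TPM of the matrix proteoglycan gene Dcn in hepatocyte 15C7, a library with Pdgfrb at 0.0571, Col1a1 at 1.17 and Lum at 0.162 TPM. All 7 endothelial markers were under 1 TPM in every library, with Lyve1 and Clec4g listed at 0 in all 4. The macrophage and leukocyte markers summed to 7.21 to 13.5 TPM in biliary cultures and 2.70 to 3.10 TPM in hepatocyte cultures, with the general leukocyte marker Ptprc at most 0.0598 TPM, Marco listed at 0 in all 4, and Cd68 at 4.50 and 11.7 TPM in biliary cultures against 0.674 and 1.74 in hepatocyte cultures. Mesothelial markers summed to 323.9 to 828.5 TPM in biliary cultures and 2.82 to 10.1 TPM in hepatocyte cultures, nearly all of it Msln, while Wt1 was at most 0.104 TPM and Upk3b was listed at 0 in all 4. The part of such cells in the members' differences was not tested.

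The order of levels differed between the states. In Bil_2D the order by mean TPM was Met, Hbegf, Tgfa, Egfr, Erbb2, Areg, Ereg, Btc, Hgf and Erbb3. The ranges of neighbours overlapped for Tgfa and Egfr, Erbb2 and Areg, Areg and Ereg, and Hgf and Erbb3. In Hep_3D the order was Egfr, Erbb3, Tgfa, Met, Erbb2, Hbegf, Btc, Ereg, Areg and Hgf. There the ranges overlapped for Hbegf and Btc, and for Ereg and Areg. Egfr thus stood under Met, Hbegf and Tgfa in biliary cultures and led in hepatocyte cultures, where Erbb3 followed it after standing last in biliary cultures.

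Ratios between members within a library do not depend on how libraries are scaled. Egfr over Met was 0.449 and 0.178 in biliary cultures and 9.56 and 4.23 in hepatocyte cultures, a log2 difference of 4.41 in clone 15C7 and 4.57 in clone 19H5. Met transcripts outnumbered those of Egfr in both biliary libraries, and the reverse held in both hepatocyte libraries. Erbb3 over Erbb2 was 0.0431 and 0.0335 in biliary cultures and 4.76 and 4.62 in hepatocyte cultures, log2 differences of 6.79 in 15C7 and 7.11 in 19H5. Hbegf over Tgfa was 1.70 and 2.07 in biliary cultures and 0.162 and 0.204 in hepatocyte cultures, log2 differences of -3.39 in 15C7 and -3.34 in 19H5. The 5 EGF receptor ligands summed to 76.7 and 107.9 TPM in biliary cultures and 32.4 and 24.7 TPM in hepatocyte cultures. Their sum over Egfr was 2.88 and 8.04 in biliary cultures and 0.271 and 0.453 in hepatocyte cultures, log2 differences of -3.41 in 15C7 and -4.15 in 19H5. None of these 4 ratios overlapped between groups, and each gave p = 0.333 in an exact two-sided permutation test, the smallest that 2 against 2 libraries allow.

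**Figure D3:**
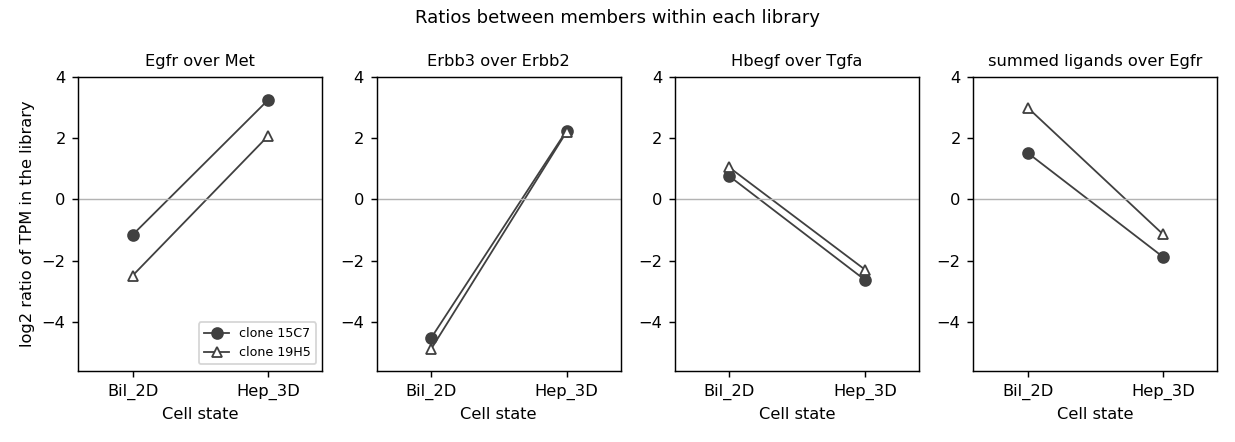
Log2 ratio of TPM between members within each library on the vertical axis, for Bil_2D and Hep_3D, with a line for each clone (circles 15C7, triangles 19H5). Both lines go up for Egfr over Met and Erbb3 over Erbb2, and both go down for Hbegf over Tgfa and for the summed ligands over Egfr.

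The make-up of the receptor and ligand pools moved with these ratios. Egfr held 74.1% and 56.7% of the summed Egfr, Erbb2 and Erbb3 TPM in biliary cultures and 78.4% and 61.6% in hepatocyte cultures, so its share was ordered by clone in both states. The second receptor was Erbb2 in biliary cultures, at 24.8% and 41.9% (Erbb3 1.07% and 1.41%). It was Erbb3 in hepatocyte cultures, at 17.9% and 31.6% (Erbb2 3.76% and 6.83%). Of the ligand pool, Hbegf held 55.8% and 54.9% in biliary cultures and 11.5% and 14.6% in hepatocyte cultures. Tgfa held 32.9% and 26.5% in biliary cultures and 71.1% and 71.5% in hepatocyte cultures. These shares are descriptions of 2 libraries a state and were not tested apart from the ratios above.

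**Figure D4:**
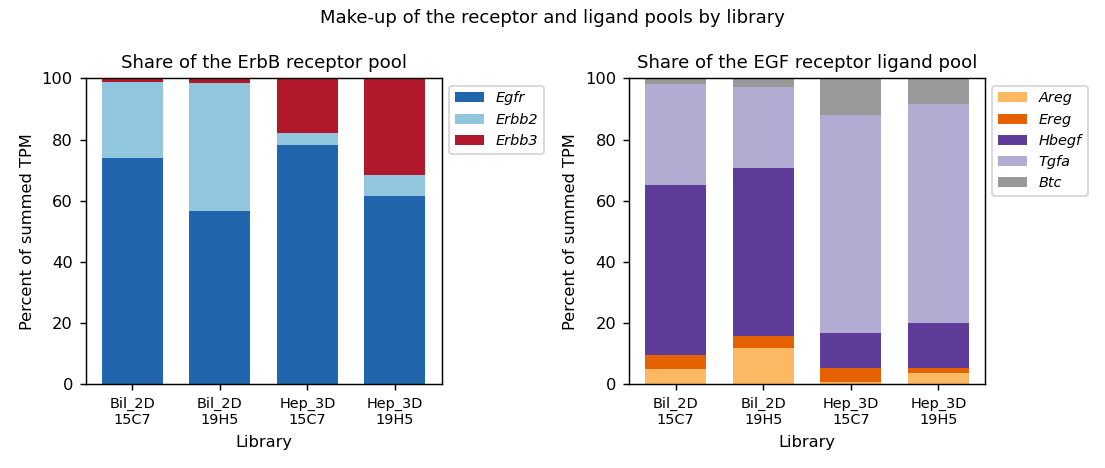
Stacked shares, in percent of summed TPM, of Egfr, Erbb2 and Erbb3 (left) and of the 5 EGF receptor ligands (right), with a bar for each library. The Erbb3 part is visible mainly in the Hep_3D bars, and the largest ligand part is Hbegf in Bil_2D (55.8% and 54.9%) and Tgfa in Hep_3D (71.1% and 71.5%).

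The clones were compared with cell state as a term, with 1 residual degree of freedom. Of 9 members tested 0 differed at an adjusted p under 0.05 in limma (0% of all genes, where 1599 had an unadjusted p under 0.05). Of the members 2, Egfr and Areg, had an unadjusted p under 0.05. The log2 difference, 19H5 minus 15C7, was -1.03 for Egfr (SE 0.12, adjusted p = 0.242) and 1.02 for Areg (SE 0.32, adjusted p = 0.374). Each went the same way in both states. The log2 difference of Erbb3 between clones was -0.01 (SE 0.16).

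The level patterns most like those of Egfr and Met were sought over the 4 libraries, by Euclidean distance of log2(TPM + 1) among all genes tested. Nearest to Egfr were Ndrg2 (distance 0.59), Pink1 (0.72) and Pros1 (0.88). Nearest to Met were Gprc5b (0.29), Gadd45b (0.31) and Snhg15 (0.32). The distance was taken over 4 libraries of 2 states, so it reflects level and state.

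Among other genes of the EGF family, the neuregulins Nrg1 and Nrg4 moved in opposite directions. Nrg1, a ligand of ErbB3, was at 26.1 and 36.6 TPM in biliary cultures and at 3.799 and 4.365 TPM in hepatocyte cultures (log2 fold change -2.65, adjusted p = 0.00513 in limma; -1.92 and 0.0165 after rescaling). Nrg1 was thus high where Erbb3 was low. Nrg4, a ligand of ErbB4, was at 2.75 and 3.93 TPM in biliary cultures and at 49.7 and 36.4 TPM in hepatocyte cultures (log2 fold change 3.34, adjusted p = 0.00454; 4.04 and 0.00366 after rescaling). Of the 7 genes of this list these 2 passed the filter. Erbb4, the receptor of Nrg4, was at most 0.0204 TPM in any library, and Egf at most 0.199 TPM. After rescaling the Nrg1 call was lost in each of the 4 leave-outs (adjusted p from 0.0696 to 0.107).

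Most genes that act in or restrain the release of EGF receptor ligands fell on the TPM scale, and few differed after rescaling. Timp3, the inhibitor in this list, passed on neither scale (adjusted p = 0.906 and 0.771 in limma). Of 9 tested, 7 fell and 0 rose (0 also at an unadjusted p under 0.05), where 51.9% of all genes fell and 6.8% rose. The median log2 fold change was -0.94 against -0.73 for all genes. After rescaling 1 was lower and 0 higher (0 unadjusted), against 9.54% and 11.9% of all genes, with a median of -0.13. Adam17, the main sheddase of these ligands, was at 26.5 and 29.9 TPM in biliary cultures and at 8.925 and 10.01 in hepatocyte cultures (log2 fold change -1.48, adjusted p = 0.00606; -0.71 and 0.0562 after rescaling, or 0.0403 there with clone as a replicate block). Adam10, a related sheddase, had log2 fold changes of -1.43 (adjusted p = 0.0103) and -0.62 (0.133) on the 2 scales. Adam12, the gene called on both, fell with log2 fold changes of -2.37 (adjusted p = 0.0096) and -1.99 (0.0338). Rhbdf2, which carries Adam17 to the cell surface, had values of -0.71 (adjusted p = 0.0487) and 0.07 (0.846), so its sign depended on the scale. The number that fell on the TPM scale was 2 without biliary 15C7, 4 without biliary 19H5, 5 without hepatocyte 15C7 and 4 without hepatocyte 19H5, and after rescaling it was 0 in each. Single calls were also lost on the TPM scale for Adam10 without biliary 15C7 (0.06), Adam12 without hepatocyte 15C7 (0.0505), and Rhbdf2 without biliary 15C7 (0.145), biliary 19H5 (0.175) or hepatocyte 19H5 (0.127).

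Genes that act in or restrain the activation of hepatocyte growth factor, listed with the related ligand Mst1 and its receptor, went both ways. Of 9 tested, 3 rose and 4 fell, with a median log2 fold change of -0.50 (all genes: 6.8% rose, 51.9% fell, median -0.73). After rescaling 3 were higher and 2 lower, with a median of 0.25 (all genes: 11.9% higher, 9.54% lower, median -0.02). Plg, the gene of plasminogen, was at 0.902 and 1.03 TPM in biliary cultures and at 785 and 1119 TPM in hepatocyte cultures (log2 fold change 8.90, adjusted p = 0.00131; 9.49 and 0.000841 after rescaling). Hgfac, the gene of the HGF activator protease, rose from 13.98 and 16.32 to 47.9 and 30.5 TPM (log2 fold change 1.29, adjusted p = 0.0177; 2.06 and 0.0157 after rescaling). Mst1, an HGF-related ligand gene, rose from 63.8 and 38.1 to 107.7 and 120.4 TPM (1.19, adjusted p = 0.0247; 2.00 and 0.0170 after rescaling). Mst1r, its receptor, was at most 0.842 TPM and was not tested.

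The urokinase genes, whose proteins act at the cell surface, were higher in biliary cultures. Plau, the urokinase gene, was at 3.44 and 6.28 TPM in biliary cultures and at 0.0707 and 0.0634 in hepatocyte cultures (log2 fold change -2.41, adjusted p = 0.00761; -2.06 and 0.0247 after rescaling). Its receptor gene Plaur was at 163.0 and 158.6 TPM in biliary cultures and 21.8 and 14.4 in hepatocyte cultures (log2 fold change -3.11, adjusted p = 0.00446; -2.31 and 0.00896 after rescaling). On the second scale the Plaur call was lost without biliary 15C7 (0.0819) or biliary 19H5 (0.0922). St14, the gene of matriptase, fell on the TPM scale (-1.44, adjusted p = 0.0322) and did not pass after rescaling (-1.04, 0.124), where it did with clone as a replicate block (0.0474). Hpn, the gene of hepsin, was at 74.1 and 6.11 TPM in biliary cultures and 265.7 and 160.8 in hepatocyte cultures, a difference that did not pass (log2 fold change 3.17, adjusted p = 0.0795) and that did with clone as a replicate block (0.0335) and without biliary 15C7 (0.0336). The numbers that rose and fell were 3 and 2 without biliary 15C7, 1 and 2 without biliary 19H5, 2 and 2 without hepatocyte 15C7, and 2 and 2 without hepatocyte 19H5. Hgfac lost its call without biliary 15C7 (0.0902) or biliary 19H5 (0.069), Mst1 without biliary 19H5 (0.0568), hepatocyte 15C7 (0.0858) or hepatocyte 19H5 (0.113), and St14 without each library in turn (0.0557 to 0.12). After rescaling the numbers higher and lower were 3 and 0, 1 and 0, 1 and 1, and 2 and 1 in the same order, and Plau lost its call in all 4 (0.074 to 0.112). Hgfac lost its call there without biliary 15C7 (0.105), biliary 19H5 (0.106) or hepatocyte 15C7 (0.0528), and Mst1 without biliary 19H5 (0.0761), hepatocyte 15C7 (0.0735) or hepatocyte 19H5 (0.0893).

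Feedback inhibitors of these receptors also had a median close to that of all genes. Of 16 tested, 7 fell and 0 rose (1 at an unadjusted p under 0.05), where 51.9% of all genes fell and 6.8% rose. The median was -0.68 against -0.73 for all genes. After rescaling 2 were lower, Spry1 and Spry2, and 1 was higher, Errfi1, with a median of -0.04. Of all genes 9.54% were lower and 11.9% higher there. Spry1 and Spry2 encode Sprouty inhibitors of the Ras-ERK cascade. Spry1 was at 12.5 and 9.31 TPM in biliary cultures and at 0.734 and 1.27 in hepatocyte cultures (log2 fold change -2.57, adjusted p = 0.0058; -1.99 and 0.0175 after rescaling). Spry2 had log2 fold changes of -2.03 (adjusted p = 0.008) and -1.33 (0.0426) on the 2 scales, the second not called with clone as a replicate block (0.0587). Errfi1, a direct inhibitor of the EGF receptor kinase, was at 242 and 143 TPM in biliary cultures and 321 and 247 in hepatocyte cultures. Its log2 fold change of 0.59 did not pass (adjusted p = 0.161), while 1.41 after rescaling did (0.0378), as did 0.59 with clone as a replicate block (0.0379). Spred2 had -1.03 (adjusted p = 0.00939) and -0.29 (0.238). With the replicate block 2 rose and 11 fell on the TPM scale. The number that fell was 2 without biliary 15C7, 1 without biliary 19H5, 4 without hepatocyte 15C7 and 4 without hepatocyte 19H5. On the TPM scale Spry2 lost its call without biliary 19H5 (0.0525) and Spred2 without biliary 15C7 (0.0624) or biliary 19H5 (0.0594). After rescaling 0 were lower in any leave-out, and the Errfi1 call was lost in each (0.0784 to 0.147).

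The shared adaptors and kinases had a median close to that of all genes. Of 28 tested, 16 fell and 0 rose (1 at an unadjusted p under 0.05), where 51.9% of all genes fell and 6.8% rose. The median was -0.72. After rescaling 3 were higher and 3 lower, against 11.9% and 9.54% of all genes, with a median of 0.07. The 3 lower ones were Src, a kinase that acts with both receptors, Mapk3, the gene of ERK1, and Akt1, which differed on the TPM scale by -2.03, -1.74 and -1.55 and by -1.24, -0.93 and -0.74 after rescaling (adjusted p = 0.01, 0.024 and 0.0291 there). Among the higher ones, and named after their values were seen, were Stat3 and Akt2 (1.23 and 1.05, adjusted p = 0.0112 and 0.0164), which did not pass on the TPM scale (adjusted p = 0.0542 and 0.197), where Stat3 did with clone as a replicate block (0.0477). The number that fell on the TPM scale was 4 without biliary 15C7, 3 without biliary 19H5, 9 without hepatocyte 15C7 and 9 without hepatocyte 19H5. After rescaling 0 of these 28 genes were called in any leave-out.

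Most genes chosen as known to respond to ERK activity fell. Of 15 tested, 10 fell and 0 rose (0 at an unadjusted p under 0.05 on either scale), with a median of -2.11 against -0.73 for all genes. After rescaling 8 were lower and 0 higher, with a median of -1.33 against -0.02. Over all genes tested 51.9% fell, and 9.54% were lower after rescaling. Spry2 and Spry4 were in this list and in that of the feedback inhibitors, so the fall of Spry2 counts in both. Ccnd1, the gene of cyclin D1, was at 645 and 813 TPM in biliary cultures and at 32.8 and 30.6 in hepatocyte cultures (log2 fold change -4.47, adjusted p = 0.00205; -3.67 and 0.00262 after rescaling), and it was called in all 15 alternative settings. Fosl1, an AP-1 subunit gene, was at 21.1 and 60.9 TPM in biliary cultures and 1.71 and 1.85 in hepatocyte cultures (-3.74, adjusted p = 0.00845; -3.07 and 0.0314 after rescaling). Epha4, an ephrin receptor gene, was at 27.6 and 27.7 TPM in biliary cultures and 0.873 and 2.36 in hepatocyte cultures (-3.51, adjusted p = 0.0055; -2.87 and 0.0166 after rescaling). The number lower on the TPM scale was 8, 7, 11 and 9 without biliary 15C7, biliary 19H5, hepatocyte 15C7 and hepatocyte 19H5. After rescaling it was 2, 1, 6 and 5, with Fosl1 not called without biliary 19H5 (0.0776), hepatocyte 15C7 (0.125) or hepatocyte 19H5 (0.125), and Epha4 not called without biliary 15C7 (0.112) or biliary 19H5 (0.13). Some of these genes also respond to other pathways, and RNA levels do not measure kinase activity.

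**Figure D5:**
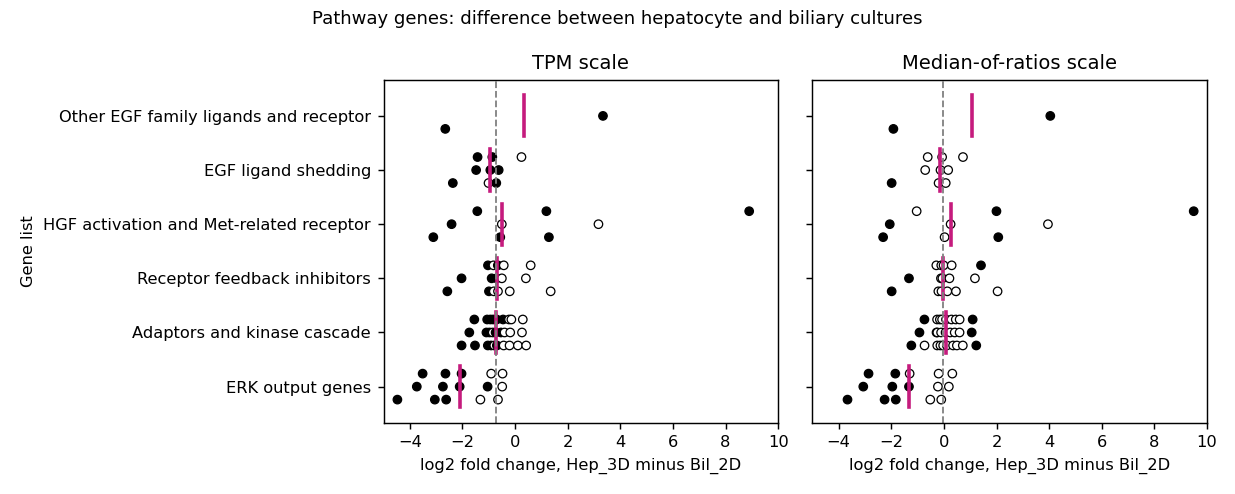
Log2 fold change of each tested gene of 6 pathway lists, Hep_3D minus Bil_2D, on the TPM scale (left) and the median-of-ratios scale (right), with filled points for an adjusted p under 0.05 in limma. Pink bars are list medians and the dashed line is the median of all genes, and the ERK output list has medians of -2.11 and -1.33 against -0.73 and -0.02.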

How the data were processed

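The authors deposited TPM (length-corrected transcript shares) for 24493 gene symbols in 4 libraries. Per the submitters' processing notes, Salmon, DESeq2 and the mm10 build were used, with no versions or roles; the annotation is not given in the sources used here. TPM keeps no depth, so counting error is unknown and no count model was fitted. RNA was extracted with a Qiagen kit and libraries were made by Novogene, per the labels' protocols. Values were compared on log2(TPM + 1) with limma 3.58.1 in R 4.3.3 (lmFit, eBayes with a trend, 2 residual degrees of freedom, prior 2.29) over the 12336 genes that reached 1 TPM in 2 or more libraries. P-values were adjusted by Benjamini-Hochberg over all genes and called under 0.05. Nothing says that the cultures were independent beyond the clones, so the p-values reflect only how far these libraries spread, in part perhaps technically. The clone numbers in the labels pair the libraries, and deviations of same-clone libraries correlated at 0.414 across genes.

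Alternatives were median-of-ratios scaling (over genes that reached 1 TPM in all 4 libraries), clone as a replicate block, both together, pseudocounts of 0.1 and 5, no filter or 5 TPM in 2 libraries, and leaving out each library on both scales, where the remaining library of a group was assumed to vary as the other group does. The script was tested on simulated data. Named genes were the members, the 3 largest changes each way of each pathway list, direct partners of members, and the 3 nearest patterns to Egfr and Met. The members and lists were chosen with earlier results of these data known. Sequences and positions are from RefSeq (GRCm38.p6), which mm10 matches, and overlaps from GENCODE M21. The values of 1 listed gene are not reported here.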

Additional observations from a re-analysis of the deposited data

Results flagged for a closer look

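Btc was the member whose difference went opposite ways in the clones on the TPM scale. Its log2 fold change, Hep_3D minus Bil_2D, was 0.997 in clone 15C7 and -0.386 in clone 19H5. With 1 library per clone and state, this difference between clones was not tested. On the median-of-ratios scale both were above 0, at 1.56 and 0.19. Btc was at most 3.86 TPM in any library.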

How the results depend on the processing

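The count of all genes that differed was 7241 (58.7% of the 12336 tested) and that of members 7. Median-of-ratios scaling gave 2642 (21.4%) and 4, and with the replicate block 3194 genes. Without the filter 3526 genes and 3 members differed. Leaving out a library gave 2627 to 4537 genes and 3 or 4 members on the TPM scale, and 340, 188, 818 and 611 genes and 2, 1, 1 and 1 members on the median-of-ratios scale (without biliary 15C7, biliary 19H5, hepatocyte 15C7 and hepatocyte 19H5). Of the 77 pathway list genes tested, 48 differed, against 24 on the median-of-ratios scale, 27 there with the replicate block, 21 without the filter, 21 to 34 with a library left out and 6, 3, 9 and 10 with both. The replicate block on the TPM scale gave 7 members and 55 pathway genes. It changed no member's call on that scale. Other changes of calls with it are given with the results for Areg, Adam17, St14, Hpn, Spry2, Errfi1 and Stat3. Beside these, Rhbdf2 (adjusted p = 0.0511 in limma) and the marker Spp1 (0.0611) lost their TPM-scale calls, and the marker Dcn gained one (0.0479). After rescaling Hpn (0.0422) and the marker Cd68 (0.0313) gained calls with it. The nearest patterns to Egfr and Met were not looked at with the block. Without the filter the calls of Egfr, Erbb2, Areg, Ereg, Adam10, Adam12, Rhbdf2, Hgfac, Mst1, Plau, St14, Spry2 and Fosl1 were lost (adjusted p from 0.0525 to 0.168).

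On the median-of-ratios scale the sign of Erbb2 turned to 0.12 (also 0.12 with the replicate block, and 0.0230, 0.225, 0.183 and 0.0643 with a library left out, in the order above), that of Tgfa to 0.39 (0.39 with the block, and 0.264, 0.513, 0.230 and 0.546) and that of Rhbdf2 to 0.0672 (0.0672 with the block, 0.152 without biliary 19H5 and 0.297 without hepatocyte 19H5). Btc turned to -0.0525 without biliary 15C7 and to -0.0273 without hepatocyte 15C7 on the TPM scale, where the leave-outs ran to 0.664. These values were obtained on the other scale or with fewer samples, and why the signs turned was not tested. The number of members that differed between the clones was 0 in every setting run. Since depth is unknown, the counting error of low genes such as Areg, Ereg and, in Bil_2D, Erbb3 cannot be given.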
